A study of Mus musculus with 2 samples.

Results

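Nuclear factor kappa B (NF-kB) transcripts were examined in TR1 cells, the type 1 regulatory CD4 T cells that produce IL-10, isolated from mouse small intestine. The genes considered were the DNA-binding subunits Nfkb1, Nfkb2, Rel, Rela and Relb, the inhibitor proteins encoded by Nfkbia, Nfkbib and Nfkbie, and the ubiquitin-editing regulators encoded by Tnfaip3 and Birc2. These 10 genes were chosen by name, with earlier results of these data known. A gene was represented by the probe set (a group of array probes for 1 transcript) whose annotation gave that single gene symbol, and by the brighter probe set where several did. That gave a value for 9 of the 10 genes, from 10 probe sets, out of 19937 genes in all. Nfkb1 was not analysed here.

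The impaired sample was prepared from CD4-DNIL-10R transgenic mice, which carry a dominant-negative IL-10 receptor driven from Cd4 gene control elements, which are active in T cells. The wildtype sample was prepared from animals whose receptor was intact. Mice of both groups had received 15 μg of the anti-CD3 antibody 2C11 by 2 intraperitoneal injections given every other day, and were killed at 4 or 48 hours after the final one. The labels tie neither time to a sample and give no mouse ages, strain, number of mice pooled or sorting scheme. Each group was measured on 1 Affymetrix array, so no difference below has a replicate error, no test was possible, and the single array of each group limits the precision of every value.

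NF-kB proteins are dimers that wait in the cytoplasm, bound by inhibitors of kappa B (IkB) or held as long precursors. Antigen receptor, TNF family and IL-1 family signals activate IkB kinases, which mark the IkB for destruction and free the canonical dimers built around RelA or c-Rel. A slower, alternative route trims the p100 precursor so that it can pair with RelB. Many inhibitors of the system are themselves switched on by NF-kB, which closes a feedback loop, and in T cells the pathway supports activation, cytokine production and survival. Much of this control acts on proteins and their location, which an array of RNA does not measure.

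Promoter sequences were examined because several of these genes are known to be switched on by NF-kB itself. The kappa B consensus, the motif that the dimers bind, was searched on both strands in RefSeq promoter windows of build GRCm38.p6, which run from 250 bases before to 50 bases after each annotated start. Overlapping matches were merged into 1 site. Of the 10 genes, 8 had a window, and 5 of these held at least 1 site (62.5%), against 1388 of 27025 genes with a window (5.14%) and 559 of 8926 measured genes that passed the brightness floor explained below (6.26%). The genes with a site were Nfkb2, Rel, Nfkbia, Nfkbie and Tnfaip3. No match was found in the windows of Rela, Nfkbib and Birc2. Nfkb1 and Relb had no window among those searched, so their promoters were not examined. Such a match is a description of the letters and says nothing of binding in these cells.

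The stretches that hold the sites are shown because they mark which members carry the motif of their own pathway. Each is written 5′ to 3′ on the gene's strand, with the kappa B sites in capitals and 30 bases on either side.
Nfkb2: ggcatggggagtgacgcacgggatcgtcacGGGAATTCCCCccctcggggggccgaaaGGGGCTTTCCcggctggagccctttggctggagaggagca
Rel: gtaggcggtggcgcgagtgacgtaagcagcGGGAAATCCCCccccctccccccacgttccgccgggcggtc
Nfkbia: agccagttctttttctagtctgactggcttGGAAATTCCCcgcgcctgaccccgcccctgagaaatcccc
Nfkbie: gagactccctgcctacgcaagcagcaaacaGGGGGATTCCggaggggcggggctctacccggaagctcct
Tnfaip3: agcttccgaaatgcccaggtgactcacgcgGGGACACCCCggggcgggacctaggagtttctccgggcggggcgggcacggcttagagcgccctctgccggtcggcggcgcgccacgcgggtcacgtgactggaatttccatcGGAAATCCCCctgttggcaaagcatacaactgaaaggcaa

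The Nfkb2 stretch lies at chr19:46304668-46304765 on the plus strand and holds 2 sites, whose first bases lie at positions -39 and -11 from the start. It was taken from the first of 3 annotated starts of that gene, and the overlapping windows of the other 2 also held sites. The Rel stretch lies at chr11:23771021-23771091 on the minus strand, with its site beginning at position -92. In both genes the first run of 11 capitals joins overlapping matches from both strands. The Nfkbia stretch lies at chr12:55492637-55492706 on the minus strand, with the site beginning at position -29. The Nfkbie stretch lies at chr17:45555564-45555633 on the plus strand, and its site begins at position -106. The Tnfaip3 stretch lies at chr10:19015383-19015565 on the minus strand, with sites beginning at positions -125 and -12. A second annotated start of Tnfaip3 had no site in its window.

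**Figure D1:**
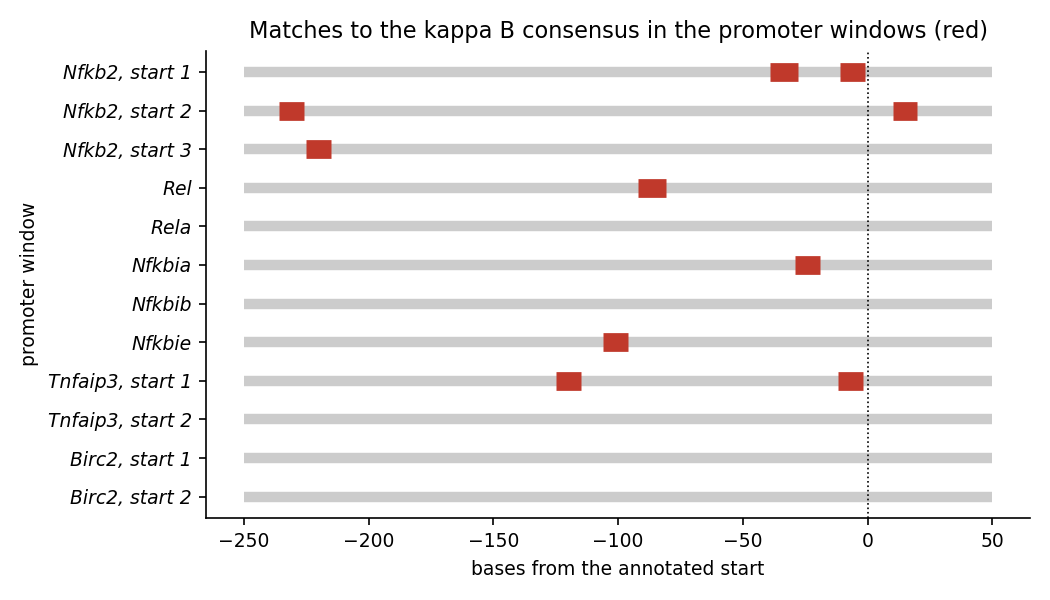
Promoter windows of the 8 members that had one among the RefSeq windows searched, with a row for each annotated start. They are drawn to scale in bases from that start (x axis, dotted line at the start). Red blocks are matches to the kappa B consensus, which occur in Nfkb2, Rel, Nfkbia, Nfkbie and Tnfaip3 and in none of the windows of Rela, Nfkbib and Birc2.

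All 9 measured genes were present above the brightness floor in both samples. The floor, 6.91 on the log2 scale, is the median probe set's brightness, averaged over both arrays, and 11124 genes reached it on at least 1 array. A gene that reached it on the impaired array alone could only lie above 0, which was so for 596 of them but for none of the members. Likewise 191 genes, again none of the members, reached it on the wildtype array alone and could only lie below 0. Values are log2 RMA expression, the probe set brightness after the authors' background correction and normalization. Differences are log2 values of the impaired sample minus the wildtype sample, and a difference of 1 is a 2-fold change. Of the 9 genes 0 differed by as much as 2-fold, where 1.65% of the 11124 genes did in either direction (1.46% higher and 0.198% lower). At the 1.5-fold threshold the count was also 0 of 9, where the background was 7.39%. The differences ran from -0.37 to 0.26, a range that held 75.8% of all genes past the floor. Of the 9 genes 6 lay above 0, or 7 after an intensity-dependent (loess) centring that turned Rel, beside 50.2% of all genes. Their median difference was 0.01, against 0.00 over all genes (0.0025 before rounding), and their median absolute difference was 0.152, against 0.170.

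**Figure D2:**
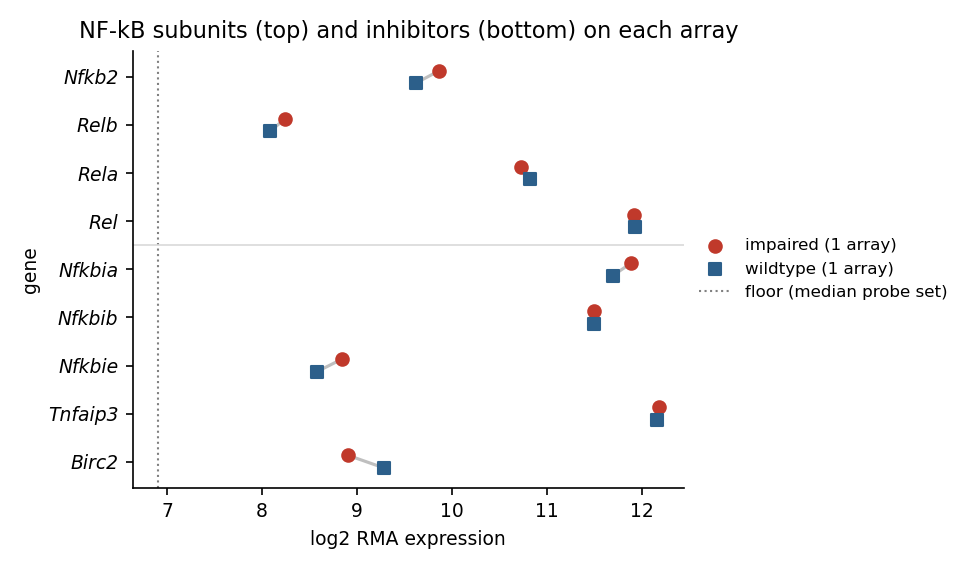
Log2 RMA expression (x axis) of each measured member on the impaired array (red circles) and the wildtype array (blue squares), subunits above the line and inhibitors below it. Each point is 1 array, and only values of the same gene can be set side by side. The widest gaps are those of Birc2, Nfkbie and Nfkb2, and all points lie right of the dotted floor at 6.91.

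Among the 4 measured subunits, Nfkb2 and Relb of the alternative route were slightly higher in the impaired sample. Rela and Rel of the canonical route were nearly equal in both. Nfkb2, which encodes the precursor p100 and its product p52, was at 9.87 in the impaired sample and 9.62 in the wildtype sample. This difference of 0.25 is a 1.19-fold higher signal, and 34.6% of genes past the floor differed by at least as much. Relb, whose protein pairs with p52, was at 8.24 in the impaired sample and 8.09 in the wildtype sample (difference 0.15), and 54.9% of genes differed by at least as much. Both thus lay on the same side, well inside the range of most genes.

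Rela encodes p65, the main transactivating subunit of the canonical dimers. Its value was 10.72 in the impaired sample and 10.82 in the wildtype sample (difference -0.09). Rel encodes c-Rel, a subunit prominent in lymphocytes. It was at 11.91 in the impaired sample and 11.93 in the wildtype sample (difference -0.02, or 0.03 after loess centring), and 94.1% of genes past the floor differed by more or as much. The difference of Nfkb2 exceeded that of Rela by 0.34 and that of Rel by 0.27, and the difference of Relb exceeded that of Rela by 0.25. Without replicates these gaps could not be set against an error.

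The IkB genes were split in the same modest way. Nfkbia, which encodes IkB alpha, the fast-acting inhibitor that NF-kB itself induces, was at 11.88 in the impaired sample and 11.69 in the wildtype sample (difference 0.19, or 1.14-fold). Nfkbie, encoding the related IkB epsilon, was at 8.84 in the impaired sample and 8.58 in the wildtype sample. Its difference of 0.26, a 1.20-fold higher signal, was the highest of the 9 genes and was reached or passed in size by 32.2% of genes past the floor. Nfkbib, encoding IkB beta, was at 11.50 in the impaired sample and 11.49 in the wildtype sample (difference 0.003). The 2 IkB genes with a kappa B site in the window had the higher differences, and the IkB gene without a match was nearly equal in both samples. Rel and Tnfaip3, which also hold sites, differed by only -0.02 and 0.01. Whether sites and differences are linked was not tested.

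Tnfaip3 encodes A20, an enzyme that edits ubiquitin chains on signalling proteins and ends NF-kB activation. It stood at 12.17 in the impaired sample and 12.16 in the wildtype sample (difference 0.01), and the window of its first start held 2 kappa B sites. Birc2 encodes cIAP1, a ubiquitin ligase that promotes canonical signalling at TNF receptors and, by marking the kinase NIK for destruction, holds back the alternative route. Its brighter probe set was at 8.91 in the impaired sample and 9.28 in the wildtype sample. The difference of -0.37 corresponds to a signal 1.30-fold higher in the wildtype sample, was the widest of the 9 genes, and was reached or passed in size by 17.8% of genes.

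The Birc2 value depended on the probe set. The brighter one is paired with 5 sequence records, among them a RefSeq mRNA, and gave the -0.37 above. The dimmer one is paired with 1 record and none from RefSeq, and was at 8.46 in the impaired sample and 8.45 in the wildtype sample (difference 0.02). The 2 probe sets therefore disagreed by 0.39. Among 575 genes with at least 2 probe sets past the floor, the differences of the 2 brightest probe sets disagreed by a median of 0.151, and 14.4% of these genes disagreed by as much as Birc2 or more. That median disagreement is about the size of the difference of Relb and larger than those of Rela, Rel, Nfkbib and Tnfaip3.

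**Figure D3:**
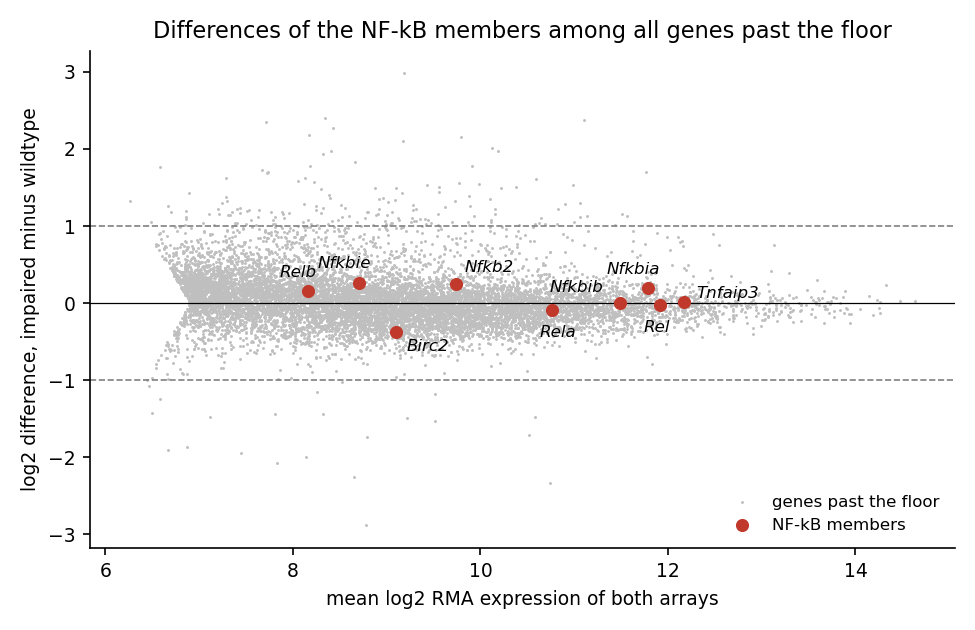
Log2 difference, impaired minus wildtype (y axis), against the mean log2 RMA expression of both arrays (x axis) for the 11124 genes past the floor (grey) and the 9 members (red, named). Dashed lines mark 2-fold. The members lie between -0.37 (Birc2) and 0.26 (Nfkbie), inside the cloud of all genes.

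By the presence of a kappa B site, the 5 members with one had differences of 0.26 (Nfkbie), 0.25 (Nfkb2), 0.19 (Nfkbia), 0.01 (Tnfaip3) and -0.02 (Rel), with a median of 0.19. The 3 without a match had 0.00 (Nfkbib), -0.09 (Rela) and -0.37 (Birc2), with a median of -0.09. The ranges overlapped, since Rel lay below Nfkbib. Birc2 is given here by its brighter probe set. The dimmer one gave 0.02, above Nfkbib and Rela, so the median of -0.09 depends on that choice. Relb (0.15) had no window and is in neither set.

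The rest of the pathway was followed through 8 lists of other NF-kB genes, which hold 131 genes, of which 121 had a value and 112 passed the floor. Of these 65 lay above 0 and 47 below, where 50.2% of all genes lay above 0, and the median was 0.07. At least 2-fold higher were 4, against 1.46% of all genes, and 0 were at least 2-fold lower, against 0.198%. Cd40, Tnfrsf11a, Il1b, Cd83, Il2, Tnfaip2 and Ptgs2 reached the floor on the impaired array alone and could only lie above 0. Il1b and Il2 are among the 4. Without the list of target genes the counts were 38 above and 40 below, with 1 past 2-fold and a median of -0.003. Most of the signalling machinery thus differed as little as the members.

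Ligands had the widest range of the signalling lists, with 5 of 10 genes above 0, a median of 0.09, and 1 past 2-fold. The median was 0.20 both without a floor and under a stricter floor, set at the 75th percentile (8.86), where 0 were past 2-fold. Il1b, an inflammatory cytokine that acts through the IL-1 receptor and is made mainly by myeloid cells, was at 8.10 in the impaired sample and 6.48 in the wildtype sample, which lies below the floor, so that the size of its difference of 1.62 is uncertain. Tnfsf9 (4-1BB ligand) was at 7.25 in the impaired sample and 7.85 in the wildtype sample (difference -0.60, or 1.52-fold higher in wildtype). Tnfsf8 (CD30 ligand) was at 10.07 in the impaired sample and 10.66 in the wildtype sample (difference -0.59, or 1.51-fold higher in wildtype). Il33, an alarmin of barrier tissues, differed by 0.54, at 9.23 in the impaired sample and 8.69 in the wildtype sample. Named after their values were seen, Tnf was at 10.03 in the impaired sample and 10.41 in the wildtype sample (-0.38), and Ltb, a lymphotoxin subunit that feeds the alternative route, at 9.30 in the impaired sample and 8.84 in the wildtype sample (0.46). TNF family ligands thus went in both directions.

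Of 16 receptor genes 11 lay above 0, beside 50.2% of all genes, with a median of 0.13. Past 1.5-fold were 0, beside 7.39% of all genes. The direction did not hold under that stricter floor, where the median was -0.0165. With the floor set on the mean of both arrays, an alternative chosen after the data were seen, 10 of 15 lay above 0 (median 0.10). The widest differences were those of Tnfrsf25 (death receptor 3), at 8.43 in the impaired sample and 7.98 in the wildtype sample (0.44), Tnfrsf11a (RANK; 0.38), Tnfrsf13c (the BAFF receptor of B cells; 0.35) and Cd40, a receptor of antigen-presenting cells (0.33). Tnfrsf11a and Cd40 reached the floor on the impaired array alone.

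In the 2 lists between receptor and kinase, 0 genes passed 1.5-fold, beside 7.39% of all genes past the floor. In the antigen receptor arm, which couples the T cell receptor and CD28 to NF-kB, 1 of 5 genes lay above 0. The widest differences were those of the co-stimulatory receptor gene Cd28 (0.13), Malt1, whose protease cleaves NF-kB inhibitors (-0.05), Prkcq, the T cell protein kinase C theta (-0.03), and the kinase gene Pdpk1 (-0.01), and the list median was -0.01, or 0.04 after loess centring. Of 16 adaptor and ubiquitin genes 8 lay above 0 and 8 below, with a median of 0.005 and 0 past 1.5-fold. Irak2, a kinase-like adaptor of IL-1 and Toll-like receptors, was at 9.87 in the impaired sample and 9.33 in the wildtype sample (0.54). Ube2n, whose product builds the ubiquitin chains used in this signalling, was at 10.78 in the impaired sample and 11.13 in the wildtype sample (-0.35). This is the brighter of its 2 probe sets. Ticam1, the adaptor TRIF, differed by 0.33, and Xiap, a caspase inhibitor related to cIAP1, by -0.26. Birc3, the neighbouring paralog of Birc2, was named after its value was seen and stood at 10.49 in the impaired sample and 10.51 in the wildtype sample.

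Of 10 kinase genes 3 lay above 0 and 7 below, with a median of -0.04. Map3k8 (TPL2), which links IkB kinase to MAP kinases, was at 9.16 in the impaired sample and 8.73 in the wildtype sample (0.43). Tab1, an activator of the kinase TAK1, differed by 0.35, Ikbke by 0.20, and Tbk1 by -0.19. Named after their values were seen, Map3k14, the gene of NIK, was at 7.53 in the impaired sample and 7.54 in the wildtype sample, Ikbkb, encoding the catalytic IkB kinase beta, differed by -0.14, and Ikbkg, its scaffold NEMO, by -0.16. The gene of the kinase that starts the alternative route was therefore nearly equal in both samples. Nfkb2 and Relb were slightly brighter and Birc2, by 1 of its 2 probe sets, dimmer in the impaired sample. Whether these differences are linked was not tested.

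Other inhibitors and brakes went in both directions. The nuclear IkB proteins, which act on NF-kB bound to DNA, had Nfkbiz at 10.98 in the impaired sample and 10.85 in the wildtype sample (0.13), Bcl3 at 11.67 in the impaired sample and 11.57 in the wildtype sample (0.10), and Nfkbid with a difference of -0.005. Of 18 further brakes 8 lay above 0 and 10 below, with a median of -0.02. Nlrc5, better known as the activator of MHC class I genes, was at 11.97 in the impaired sample and 11.37 in the wildtype sample (0.60). It was the only 1 of the 18 past 1.5-fold, where 7.39% of all genes were. That value is from the brightest of its 19 probe sets, and those of the others are not given here. Zc3h12a, the RNase regnase-1, differed by 0.49. Tnip3, a partner of A20, was at 10.87 in the impaired sample and 11.28 in the wildtype sample (-0.40), and Cyld, a deubiquitinase that opposes NF-kB, at 10.77 in the impaired sample and 11.12 in the wildtype sample (-0.35).

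**Figure D4:**
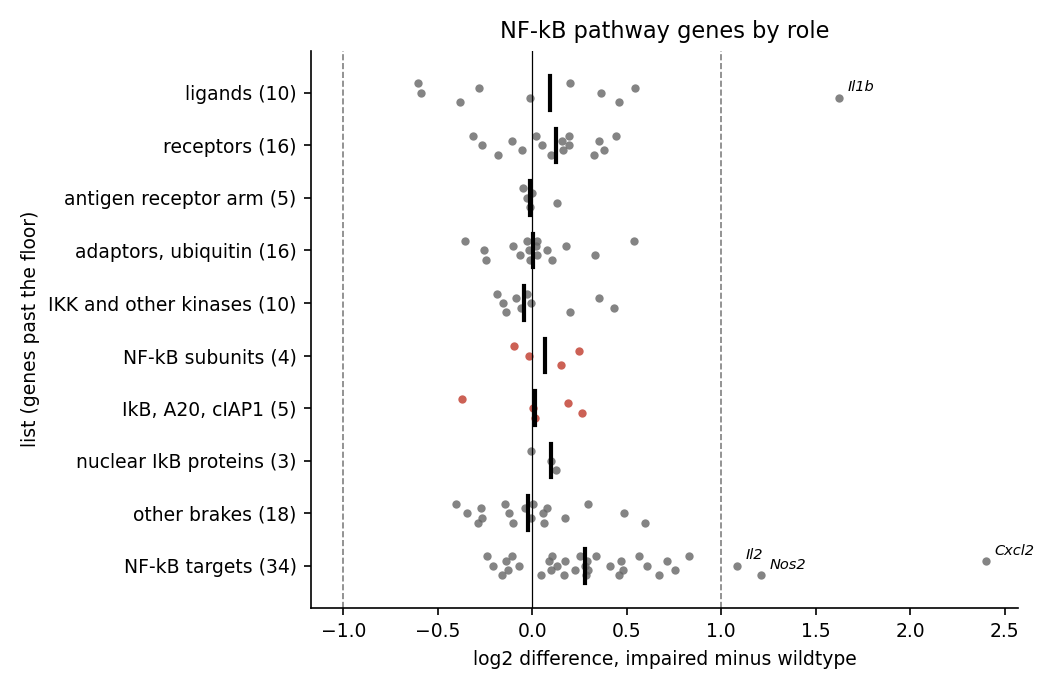
Log2 difference, impaired minus wildtype (x axis), of genes past the floor in the NF-kB lists (y axis, number of genes in brackets), with the members in red. Each dot is a gene, black bars are list medians and dashed lines mark 2-fold. The 34 target genes have the highest median, 0.28, while the medians of the other lists lie between -0.04 and 0.13.

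Of 34 genes past the floor that are widely described as NF-kB targets, 27 lay above 0, beside 50.2% of all genes, with a median of 0.28. Of the 27, Il2, Tnfaip2, Ptgs2 and Cd83 reached the floor on the impaired array alone. With the floor on the mean of both arrays 24 of 31 lay above 0 (77.4%, beside 49.4% of all genes), with a median of 0.25 and 2 past 2-fold, and at the 75th percentile floor the median was 0.13 with 1 past 2-fold. At the first floor 3 were at least 2-fold higher, against 1.46% of all genes, and 0 at least 2-fold lower. Cxcl2, a neutrophil-attracting chemokine, was at 9.54 in the impaired sample and 7.14 in the wildtype sample (2.40, or 5.29-fold). Nos2, the inducible nitric oxide synthase, was at 8.85 in the impaired sample and 7.64 in the wildtype sample (1.21). Il2, a T cell growth factor, was at 7.40 in the impaired sample and 6.32 in the wildtype sample (1.08), and Tnfaip2 at 7.01 in the impaired sample and 6.18 in the wildtype sample (0.83). The wildtype values of Il2 and Tnfaip2 lay below the floor, which leaves the size of both differences uncertain.

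Targets also known from activated T cells, chosen after their values were seen, went in both directions. Ccr7, a lymph node homing receptor, differed by 0.46, Myc, a growth regulator, by 0.41, and Il2ra, the high-affinity chain of the IL-2 receptor, by 0.34. Irf4 and Irf1, transcription factors of activated lymphocytes, both differed by 0.28. The adhesion genes Cd44 and Icam1 differed by 0.10 and 0.09, and the stress-response gene Gadd45b by 0.10. Below 0 were the chemokine genes Ccl3 (-0.07) and Ccl4 (-0.11) and Cd69, an early activation marker (-0.21).

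Signals of other cells moved alongside the targets. All 10 neutrophil markers past the floor (of 12 listed) were brighter on the impaired array (median 1.80), but Mmp8, Cxcr2 and Ltf reached it on that array alone. With the floor on the mean of both arrays the count was 9 of 9 (median 1.83). S100a8, a calprotectin subunit, differed by 2.26, and Mmp8 by 2.35, a size that is uncertain because its wildtype value of 6.54 lay below the floor. The log2 of the summed signal over all 12 was 12.81 in the impaired sample and 11.16 in the wildtype sample. All 14 enterocyte markers were brighter (median 0.90, led by Sis at 1.77 and Alpi at 1.22). The log2 of their summed signal was 15.11 in the impaired sample and 14.27 in the wildtype sample. All 10 goblet and Paneth markers past the floor were brighter too (median 0.92), but Ang4 and Itln1 reached it on the impaired array alone. With the floor on the mean of both arrays the count was again 10 of 10. Lyz1 differed by 1.70, and Ang4, whose wildtype value lay below the floor, by a like amount. The log2 of the summed signal of these markers was 15.12 in the impaired sample and 14.13 in the wildtype sample. Of 12 macrophage markers 5 passed the floor, and Cd14 and C1qa did so on the impaired array alone. Lyz2 differed by 1.78 and Tyrobp by 1.03, while Cd68 differed by 0.09. The median was 0.98, or 0.60 with the floor on the mean of both arrays, and Csf1r, Adgre1, C1qb, C1qc and Itgam stayed below it on both arrays. The part of these cells in the values of the targets and of the NF-kB genes themselves, which most cell types express, was not tested. In a bulk sample, fewer cells of a type and less RNA per cell cannot be told apart.

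The remaining marker lists were smaller or went the other way. Of 7 B cell markers 2 passed the floor, Blnk (0.99) and Cd79b (0.60), and Cd79a, Ms4a1, Pax5 and Cd22 lay below it. Of 5 stromal and endothelial markers past the floor, Dcn (1.18, of uncertain size) and Col3a1 reached it on the impaired array alone, Pecam1 differed by 0.40, and the median was 0.17. The 2 dendritic cell markers past it, Itgax and Xcr1, differed by 0.34 and -0.03. Of 4 CD8 and gamma-delta T cell markers 3 were below 0, with Cd8a at -0.70 and Trgv1 at -0.40. Both signals were far above the floor on both arrays. Cd8a was at 11.42 in the impaired sample and 12.12 in the wildtype sample, and Trgv1 at 12.71 in the impaired sample and 13.11 in the wildtype sample. All 8 measured pancreatic acinar markers (of 10 listed) were below 0 (median -1.83, with Ctrb1 at -2.33 and Try5 at -2.26). Try10 among them reached the floor on the wildtype array alone and so could only lie below 0. With the floor on the mean of both arrays the count was again 8 of 8. Markers of the labelled cells were present and nearly equal. Il10 was at 12.92 in the impaired sample and 12.94 in the wildtype sample, Lag3 and Itga2 differed by -0.05 and 0.10, and 9 T cell genes had a median of -0.02, with Cd3g at -0.19 and Zap70 at 0.18. Il10ra, the receptor chain that the transgene concerns, was at 12.30 in the impaired sample and 9.92 in the wildtype sample (2.38). Whether its probe set reads the transgene is not known here.

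**Figure D5:**
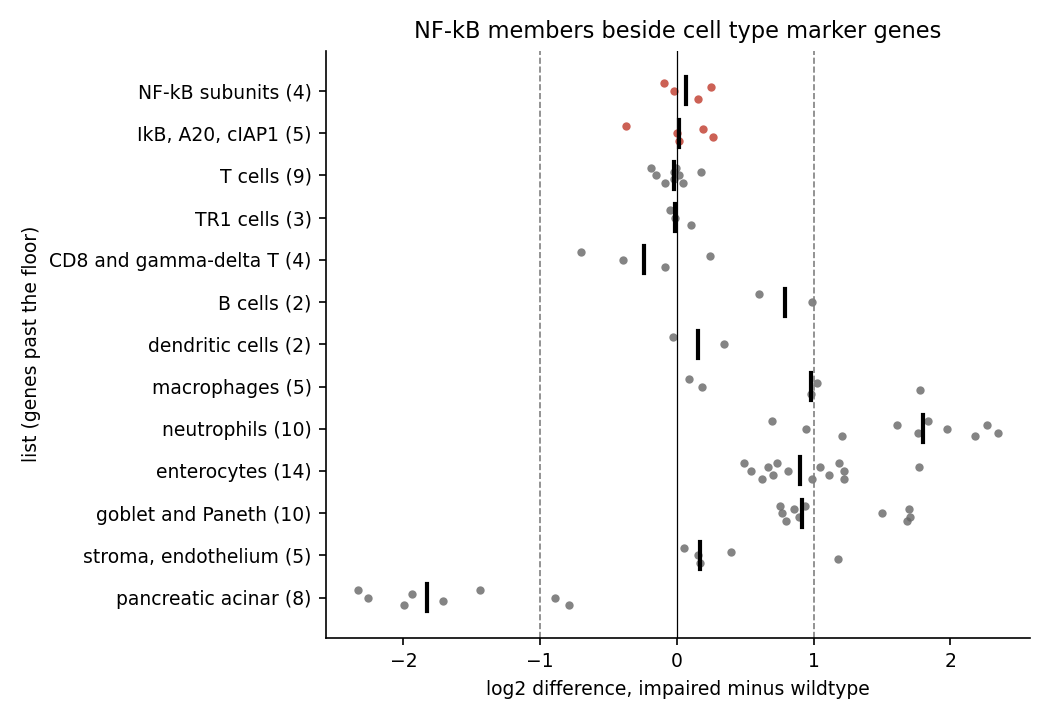
Log2 difference, impaired minus wildtype (x axis), of the NF-kB members (red) and of marker genes of T cells and other cell types (grey), for genes past the floor (numbers in brackets). Black bars are list medians and dashed lines mark 2-fold. Neutrophil and epithelial markers lie above 0, with medians of 0.90 to 1.80, and pancreatic markers below it, while the NF-kB members and T cell markers lie near 0.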

How the data were processed

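RNA of 2 samples was measured on Affymetrix arrays, 1 per group. The deposited values are log2 expression per probe set, made with affy and RMA per the submitters' processing notes, which correct background, equalise the arrays and summarise probes. Neither versions nor a genome build is given in the sources used here. RMA compresses folds of dim probe sets. Of 34760 probe sets, GEO's platform annotation gives 21640 a single symbol, 1321 several, and does not list 11799.

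From these, the log2 difference (impaired minus wildtype) was taken as it stands. With 1 array per group, no p-value was computed. The members and all lists were chosen with earlier results of these data known. Named genes are all members, the 4 widest differences past the floor of each pathway list, the 2 widest of each marker list, and Il10ra and Il10. With 2 arrays any 2 genes correlate fully, so no genes of like pattern were sought. Alternatives were loess and median centring, an offset of 32 on the linear scale, the mean or dimmer probe set of a gene, and other floors. Scripts were tested on simulated data. Python 3.11.15, numpy 2.4.6, pandas 2.3.3, statsmodels 0.14.6 and matplotlib 3.10.9 were used.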

Additional observations from a re-analysis of the deposited data

How the results depend on the processing

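No paired analysis was possible because each group has 1 array. Of the 9 members, 0 passed 1.5-fold under any of the 5 alternatives that apply to them. Under loess centring Rel turned from -0.02 to 0.03, and with the dimmer probe set Birc2 turned to 0.02. The mean of both Birc2 probe sets gave -0.18. Of 148 recomputed counts and medians, 142 stayed within a log2 tolerance of 0.1 or a factor of 1.5. The other 6 changed with the floor. At the 75th percentile floor (8.86) the receptor median became -0.0165, the ligand median 0.20 with 0 genes past 2-fold, and the target median 0.13 with 1 gene past 2-fold. With no floor the ligand median was 0.20. With the floor on the mean of both arrays, chosen after the data were seen, 0 of the pathway medians moved by the tolerance. Fewer genes are tested at the higher floor and more without one. The effect of the authors' background correction could not be varied from the deposited values.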

Other observations

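Over all measured genes, those with a kappa B site in a RefSeq promoter window were slightly brighter in the impaired sample, an observation made after the member promoters were seen. Of 8926 genes past the floor with a window, the 559 with a site had a median difference of 0.06, with 59.4% above 0, and the 8367 without had a median of -0.004, with 49.1% above 0. The shares past 2-fold were 1.79% with a site and 1.55% without. Windows with a site were richer in G and C, at a median of 62.3% against 60.7%. Among windows at or above 60.7% G and C, the medians were 0.05 with a site (326 genes) and -0.001 without (4281 genes), and below it 0.08 (233 genes) and -0.006 (4086 genes). After loess centring they were 0.09 with a site and 0.02 without. Genes that reached the floor on the impaired array alone, which could only lie above 0, are counted here. So are those that reached it on the wildtype array alone, which could only lie below 0. How many of either kind fall in each set was not counted, and the split was not repeated at another floor. These values describe 2 arrays, and genes are not replicates.

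Among the listed target genes, 12 of 31 with a window held a kappa B site (38.7%), which is a share between those of the members and of all genes. The 11 of them past the floor had a median difference of 0.34, and the 15 past the floor without a site one of 0.13. Above 0 lay 9 of 11 and 12 of 15, beside 59.4% of all genes with a site and 49.1% of those without. Il2, Tnfaip2, Ptgs2 and Cd83, where they have a window, are counted here though they could only lie above 0. This split was not repeated at another floor. Both nuclear IkB genes with a window, 2 of 2, held a site, as did 4 of 13 further brakes, 4 of 17 receptors, 1 of 3 genes of the antigen receptor arm, 1 of 9 kinases, 1 of 11 ligands and 1 of 16 adaptors, beside 5.14% of all genes with a window.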
